A study of Mus musculus with 18 samples.

Results

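The miR-130/miR-301 family of the mouse is a set of microRNAs (miRNAs) with a common seed, the stretch of bases by which a miRNA recognises its targets. It was taken here as 4 mature miRNAs, mmu-miR-130a-3p, mmu-miR-130b-3p, mmu-miR-301a-3p and mmu-miR-301b-3p, out of the 1907 mature miRNAs in the table of read counts. The members were chosen by name, and the reads of each were summed over its rows, of which every member had 1. All RNA came from NIH/3T3 cells, a mouse fibroblast line, and small RNA was sequenced as input or after immunoprecipitation with an antibody against pseudouridine (Ψ-IP). Pseudouridine (Ψ) is an isomer of uridine, which Ψ synthases such as PUS1 make from uridines already in an RNA. The cells were wild type (WT), or carried a knockdown of Pus1 for 3 days (KD3) or 6 days (KD6). Each of the 6 groups had 3 libraries, named A, B and C, and nothing in the labels says whether these came from separate cultures, so p-values measure the spread between libraries, which may be technical.

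A miRNA is cut as a duplex from an RNA hairpin, and either the 5p or the 3p arm can be kept by an Argonaute protein, which it then leads to messenger RNAs that pair with its seed. In this family the 3p arm is the one usually kept. The family is known for repressing Pparg, a driver of fat cell differentiation in fibroblast-like precursors, and for its part in vascular and fibrotic remodelling.

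The mature sequences are shown because the results below turn on differences between near-identical members and between the arms of 1 hairpin. They are taken from RefSeq on GRCm38.p6, are written 5′ to 3′, and carry the seed (bases 2 to 8) in capitals. No sequence is shown for mmu-miR-301b-3p. The 3p arms are those of the members.
mmu-miR-130a-3p: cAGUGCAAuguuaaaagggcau
mmu-miR-130b-3p: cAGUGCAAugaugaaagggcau
mmu-miR-301a-3p: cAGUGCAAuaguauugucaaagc
The 5p arms of the same hairpins have other seeds, which are the same in miR-301a-5p and miR-301b-5p.
mmu-miR-130a-5p: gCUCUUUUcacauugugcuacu
mmu-miR-130b-5p: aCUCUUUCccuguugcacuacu
mmu-miR-301a-5p: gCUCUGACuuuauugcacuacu
mmu-miR-301b-5p: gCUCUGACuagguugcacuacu

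Between miR-130a-3p and miR-130b-3p, 20 of 22 bases were the same, and the differences were U11A and A13G, with positions counted from 1 at the 5′ end of miR-130a-3p. Uridine, the base from which Ψ is made, occurred 5 times in miR-130a-3p, 4 times in miR-130b-3p and 6 times in miR-301a-3p. The 5p arms held 10 (miR-130a-5p), 9 (miR-130b-5p), 9 (miR-301a-5p) and 7 (miR-301b-5p) uridines. The hairpin that yields both miR-130b arms lies on the minus strand at chr16:17124061-17124142 of GRCm38.p6, and its arms are in capitals below.
mir-130b hairpin: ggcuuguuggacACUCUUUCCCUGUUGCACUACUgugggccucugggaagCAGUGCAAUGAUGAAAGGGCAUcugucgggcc

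The mir-301b hairpin lies 257 bases from it, at chr16:17124400-17124496 on the same strand, and both sit in an intron of 2610318N02Rik in the GENCODE M21 annotation. The mir-301a hairpin (Mir301) lies at chr11:87113004-87113089 on the plus strand, in an intron of Ska2, a gene for a subunit of the spindle and kinetochore complex. The mir-130a hairpin lies at chr2:84741115-84741178 on the minus strand, where no other gene is annotated.

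Libraries held 3989031 to 15099781 mapped reads, except KD6 input A, which held 241109, of which 7 were reads of the members. The fitted KD6 log2 ratios of the members and of most 5p arms, and the member ratios, are therefore also given without it. Other KD6 values, such as shares and mean levels in input, include it unless stated. Reads outside miRNAs made up 5.47% to 38.2% of mapped reads. Of 6 markers of fibroblasts and mesenchyme, all were detected in every input library, and their summed level was 318025 to 535643 CPM (reads scaled to a common library size) in inputs and 79445 to 187156 CPM in Ψ-IP. Of 13 markers of other cell types, the sum was 2623 to 3808 CPM in inputs and 5722 to 8232 CPM in Ψ-IP. In the inputs this was mostly miR-9-5p (2551 to 3776 CPM), while miR-142a-3p, miR-133a-3p, miR-290a-3p, miR-294-3p and miR-141-3p were at 0 in all 9 inputs. The liver marker miR-122-5p was found in every input, at 24.4 to 71.7 CPM, and the remaining ones reached at most 2.39 CPM. The input median of miR-9-5p, 3371 CPM, was above those of the fibroblast markers miR-214-3p (2376 CPM) and miR-145a-5p (1260 CPM). The part of the shifts between input and Ψ-IP in the results was not tested.

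In the input libraries the family was made up mainly of miR-130a-3p, and in WT Ψ-IP miR-301a-3p held the largest share. Of the reads of the 4 members, miR-130a-3p held 79.5% ± 1.99 in WT input and 27.9% ± 2.39 in WT Ψ-IP, while miR-301a-3p held 9.30% ± 1.17 and 50.1% ± 3.92 (SD, n = 3). The share of miR-130b-3p was 10.6% ± 3.24 and 18.1% ± 3.36, and that of miR-301b-3p 0.59% ± 0.22 and 3.82% ± 3.32. On the scale of CPM of miRNA reads, the summed level of the members was 97.9 ± 39.2 in the inputs of WT cells and 16.6 ± 2.65 in their Ψ-IP. The shift stood on few reads on the Ψ-IP side, 84.0 ± 11.1 per library against 1069 ± 478 in input.

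In KD3, miR-130a-3p held 79.7% ± 2.54 of family reads in input and 44.7% ± 7.57 in Ψ-IP, and miR-301a-3p held 7.95% ± 2.05 and 36.9% ± 14.2. In KD6 the input shares were 73.9% ± 2.20 and 9.89% ± 8.93. The KD6 Ψ-IP libraries did not resemble each other, with 40.5% ± 36.1 for miR-130a-3p and 48.1% ± 32.4 for miR-301a-3p (SD, n = 3), from 22.3 to 204.5 family reads each. miR-130a-3p was still the largest member in replicates A (40.1%) and C (53.4%) of the KD3 Ψ-IP and in replicate A (82.1%) of the KD6 Ψ-IP.

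**Figure D1:**
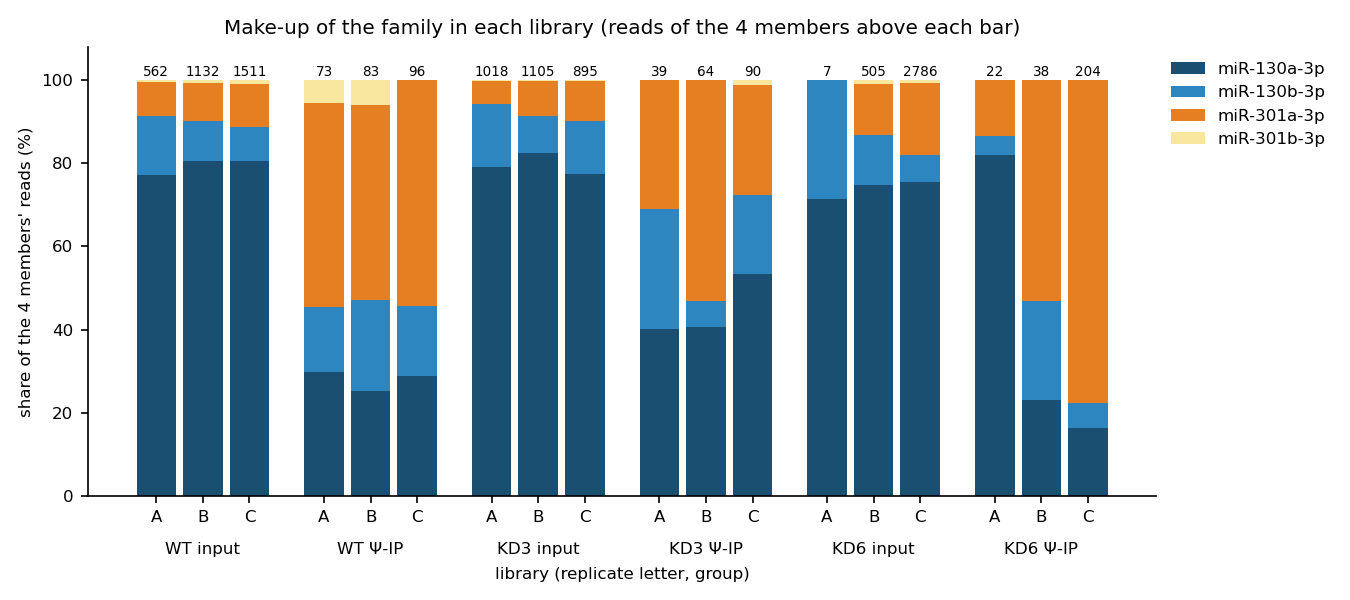
Share of the 4 members' reads held by each member (vertical axis, %) in each of the 18 libraries (horizontal axis, replicate letter and group), with the library's reads of the 4 members above the bar. miR-130a-3p is the largest block in every input bar, and miR-301a-3p the largest in all 3 WT Ψ-IP bars.

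mmu-miR-130a-3p, the most abundant member in cells, was strongly depleted from Ψ-IP in all 3 cell states. Its level was 48.4, 78.2 and 121 CPM in replicates A, B and C of the WT input and 5.26, 3.84 and 4.10 CPM in those of the WT Ψ-IP. In KD3 it was 61.4, 76.9 and 93.8 CPM in input and 5.15, 9.22 and 7.36 CPM in Ψ-IP. In KD6 it was 18.9, 62.6 and 191 CPM in input and 5.70, 3.59 and 5.75 CPM in Ψ-IP, where the 18.9 CPM rests on 5 reads. All Ψ-IP libraries lay below all input libraries of the same state. The inputs spread far more than the Ψ-IP libraries, with replicate A lowest and replicate C highest in each of the 3 states. For such differences between inputs of bulk RNA, a lower level per cell and fewer cells with the miRNA cannot be told apart. The log2 ratio of Ψ-IP to input was −4.24 ± 0.51 (SE) in WT, −3.41 ± 0.50 in KD3 and −4.29 ± 0.53 in KD6 (adjusted p = 3.2e-07, 4.3e-06 and 3.1e-07, edgeR quasi-likelihood test, Benjamini-Hochberg).

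mmu-miR-130b-3p, 2 bases apart from miR-130a-3p, was also lower in Ψ-IP, by less. Its level was 8.92, 9.25 and 12.1 CPM in the WT input and 2.87, 3.29 and 2.35 CPM in the WT Ψ-IP. In KD3 it was 11.6, 8.44 and 15.4 CPM in input and 3.54, 1.42 and 2.61 CPM in Ψ-IP. In KD6 it was 7.55, 9.93 and 16.3 CPM in input and 0.317, 3.59 and 2.03 CPM in Ψ-IP. The 2 fractions did not overlap in any state, although the Ψ-IP values stand on 1 to 18.3 reads per library. In KD6 the lowest input value, 7.55 CPM in replicate A, stands on 2 reads. The log2 ratio was −1.83 ± 0.42 (SE) in WT, −2.20 ± 0.45 in KD3 and −2.71 ± 0.49 in KD6 (adjusted p = 0.00072, 0.00021 and 5.1e-05, edgeR, Benjamini-Hochberg).

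mmu-miR-301a-3p was the member that was not called in either direction. Its level was 5.13, 8.91 and 15.8 CPM in the WT input and 8.61, 7.13 and 7.62 CPM in the WT Ψ-IP. In KD3 it was 4.41, 7.85 and 11.8 CPM in input and 3.86, 12.1 and 3.68 CPM in Ψ-IP. In KD6 it was 0, 10.3 and 43.9 CPM in input and 0.951, 7.98 and 26.9 CPM in Ψ-IP. The 0 is from the shallow replicate A, where a count of 0 allows 3 reads, or 11.3 CPM. Input and Ψ-IP overlapped in all 3 states, and replicate C of KD6 stood above replicates A and B in both fractions. The log2 ratio was −0.36 ± 0.72 (SE), −0.34 ± 0.76 and −0.89 ± 0.72 in WT, KD3 and KD6 (adjusted p = 0.67, 0.69 and 0.28, edgeR, Benjamini-Hochberg). The KD6 value was carried by single libraries, as it was −1.94 without replicate C of the KD6 Ψ-IP (adjusted p = 0.033, edgeR) and 1.26 without replicate C of the KD6 input (adjusted p = 0.20). It was 0.25 without replicate A of the KD6 Ψ-IP, and without a filter on low counts it was −1.33 and past the threshold (adjusted p = 0.0013, edgeR). The reads of miR-301a-3p in WT Ψ-IP had few distinct sequences, with 36, 39 and 52 reads from 2, 4 and 3 sequences, against 46, 104 and 159 reads from 10, 15 and 19 sequences in the input. The part of this in the value was not tested.

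mmu-miR-301b-3p was near the limit of detection and was the 1 member of 4 that did not pass the filter on low counts, so that 3 members were tested among 550 miRNAs. It had 2, 7 and 12 reads in the WT input and 4, 5 and 0 in the WT Ψ-IP. It had 1 read in each KD3 input library, and 0, 0 and 1 in the KD3 Ψ-IP. In KD6 it had 0, 5 and 17 reads in input and none in the 3 Ψ-IP libraries, where a count of 0 allows 3 reads, or 0.507 to 1.20 CPM by library. No direction can be read from these counts.

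**Figure D2:**
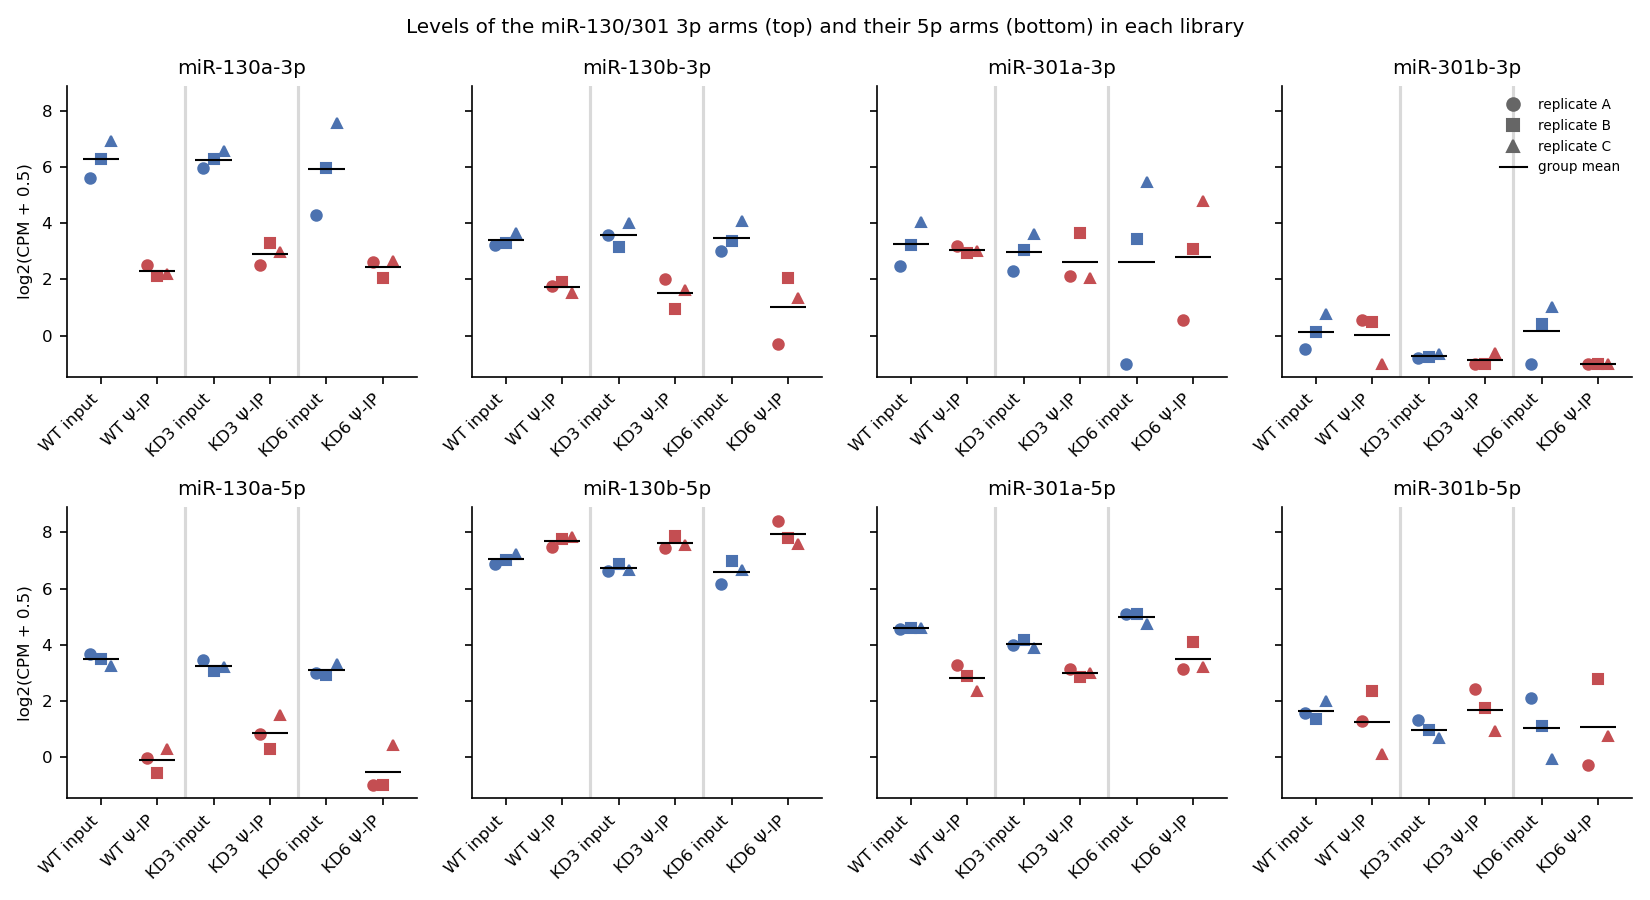
Level of each member (top row) and of the opposite arm of its hairpin (bottom row) in every library, as log2(CPM + 0.5) on the vertical axis against the 6 groups, with input in blue, Ψ-IP in red, a symbol per replicate and a line at the group mean. The miR-130a arms and miR-130b-3p fall from input to Ψ-IP in each state, and miR-130b-5p is higher in Ψ-IP in each state.

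Set against all miRNAs, lower levels in Ψ-IP were common. In WT, 2 of the 3 members tested were lower and none was higher, against 40.2% lower and 25.5% higher of the 550 miRNAs tested. In KD3 the same 2 members were lower, against 38.2% lower and 27.6% higher of all. In KD6 they were again the 2 lower members, against 38.4% lower and 30.5% higher. All Ψ-IP libraries lay below all input libraries for 44.5%, 43.1% and 26.5% of miRNAs in WT, KD3 and KD6, and above them for 28.7%, 30.7% and 29.8%. For the members it was 2 of 3 below and none above in each state. With 3 members, 2 of 3 is not a share that stands apart from these. Counted from the lowest, miR-130a-3p ranked 52 of 550 in WT, 80 in KD3 and 72 in KD6, and miR-130b-3p ranked 171, 136 and 126. The median log2 ratio of the members was −1.83 in WT, −2.20 in KD3 and −2.71 in KD6, beside −0.35, −0.26 and −0.35 for all miRNAs tested.

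These log2 ratios depend on how libraries are scaled, and changes are therefore also given relative to the median of all miRNAs. That median, −0.35 in WT, became −0.04 with RLE factors, 0.27 with a mean of at least 10 counts as filter, and 0.40 to 0.59 when any 1 of the 6 WT libraries was left out. Of the calls over all miRNAs, those higher in Ψ-IP made up 38.8% in WT, 42.0% in KD3 and 44.3% in KD6. This share went to 55.3%, 54.3% and 52.9% with the filter on the mean, and to 33.5% in KD3 and 27.7% in KD6 with total mapped reads as library size. With any 1 library of the state left out it was 56.5% to 60.1% in WT, 55.0% to 57.6% in KD3 and 39.7% to 56.2% in KD6, and the 140 higher calls in WT became 212 to 233, so that the shares of higher and lower miRNAs given above hold for this scaling. For miR-130b-3p in WT the call was lost without replicate A (−1.11), B (−1.10) or C (−0.89) of the WT input and without replicate A (−1.05) or C (−0.85) of the WT Ψ-IP (adjusted p = 0.055 to 0.144, edgeR). As fitted, leaving out 1 library of the state gave −3.72 to −3.07 in WT, −3.01 to −2.72 in KD3 and −4.85 to −2.61 in KD6 for miR-130a-3p, and −1.95 to −1.31 in KD3 and −2.97 to −1.64 in KD6 for miR-130b-3p, all past the threshold. Relative to the median miR-130b-3p in WT was at −1.49 with all libraries, and −1.87 to −1.41 over all 16 alternatives.

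Without the shallow KD6 input A, the KD6 values were −4.85 for miR-130a-3p, −2.97 for miR-130b-3p and −1.28 for miR-301a-3p among the members, and −4.45 for miR-130a-5p, 0.94 for miR-130b-5p and −1.63 for miR-301a-5p among the opposite arms, with every call as before.

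Relative to the median, miR-130a-3p was at −3.89 in WT, −3.16 in KD3 and −3.94 in KD6. Over the alternatives these ranged from −4.27 to −3.66, from −3.41 to −3.09 and from −4.66 to −2.99, the last without replicate C of the KD6 input. miR-130b-3p was at −1.94 in KD3, with a range of −2.26 to −1.76, and at −2.35 in KD6, with a range from −3.01 without a filter on low counts to −1.996 without replicate A of the KD6 Ψ-IP. miR-301a-3p was at −0.01 in WT, −0.08 in KD3 and −0.53 in KD6, and in KD6 ranged from −2.11 to 0.87.

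**Figure D3:**
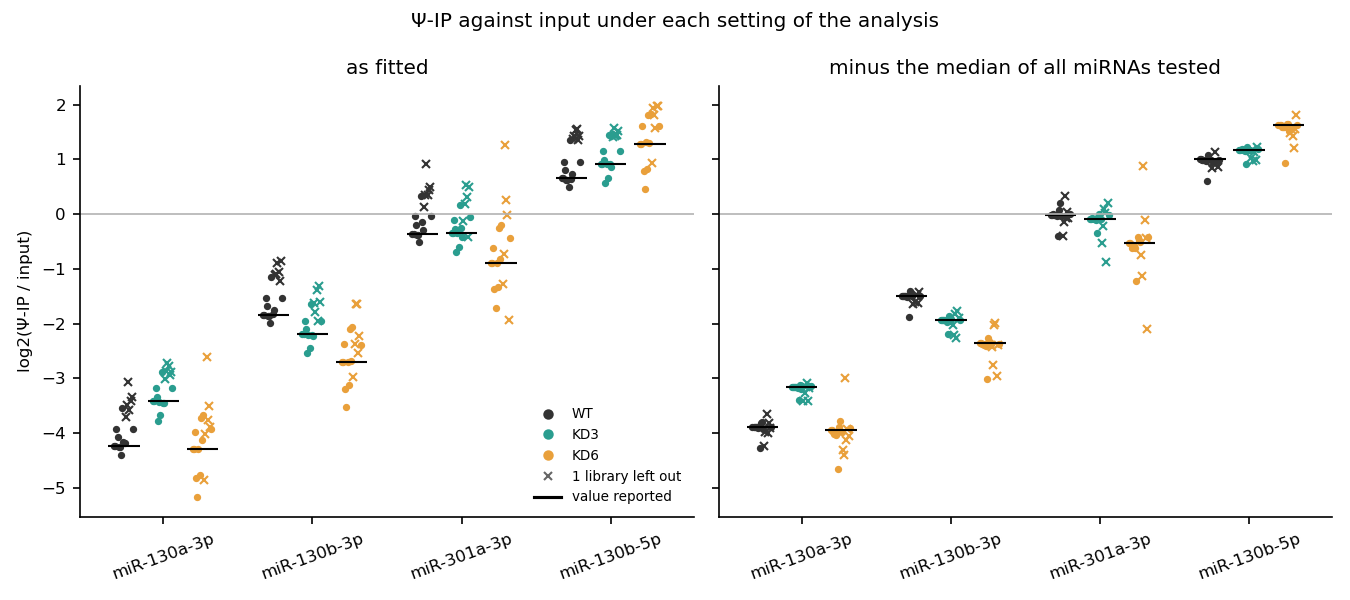
log2 ratio of Ψ-IP to input (vertical axis) of the 3 members tested and of miR-130b-5p in WT, KD3 and KD6 under every setting of the analysis, as fitted (left) and minus the median of all miRNAs tested (right), with crosses for fits that leave out 1 library and a line at the value reported. The spread over settings narrows on the right for miR-130a-3p, miR-130b-3p and miR-130b-5p, and stays wide for miR-301a-3p in KD6.

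Ratios of 2 miRNAs within a library do not depend on scaling, and by reads they separated the members. Each was taken as log2 of counts plus 0.5, and Ψ-IP was compared with input over 9 libraries a side by a two-sided exact permutation test within cell state, with 7 ratios in the family. miRNAs are read whole, so no scaling by length was applied, and how well each sequence ligates was not measured. The ratio of miR-130a-3p to miR-301a-3p was 3.22, 3.13 and 2.93 in replicates A, B and C of the WT input, and −0.71, −0.88 and −0.91 in the WT Ψ-IP. It fell by 3.33, or 10.1-fold, over the 3 states (exact permutation p = 0.0005, adjusted p = 0.0018), with −3.93 in WT, −3.03 in KD3 and −3.05 in KD6. The fractions did not overlap in WT and KD3, and in KD6 replicate A of the Ψ-IP (2.43) lay among the inputs (2.12 to 3.46). The 3.46 is replicate A of the KD6 input, with 5 reads of miR-130a-3p and 0 of miR-301a-3p, so it depends on the added 0.5. The 2.43 stands on 18.3 and 3 reads.

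The ratio of miR-130b-3p to miR-301a-3p was 0.80, 0.05 and −0.38 in the WT input and −1.60, −1.07 and −1.67 in the WT Ψ-IP. In the inputs these 2 members did not differ beyond their spread, at a mean log2 ratio of 0.16 ± 0.59 in WT, 0.63 ± 0.67 in KD3 and 0.28 ± 1.89 in KD6 (SD, n = 3). In Ψ-IP miR-130b-3p was the lower one, and the ratio fell by 1.90 (exact permutation p = 0.001, adjusted p = 0.0023). The difference was −1.60 in WT, −1.80 in KD3 and −2.29 in KD6, with overlap in KD6 only. The ratio in replicate A of the KD6 input, 2.32, stands on 2 reads of miR-130b-3p and 0 of miR-301a-3p. One state alone, with 3 libraries against 3, cannot give an exact permutation p under 0.1. By distinct sequences, summed over 3 libraries, miR-301a-3p went from 44 in WT input to 9 in WT Ψ-IP. miR-130b-3p went from 53.8 to 16.8, and miR-130a-3p from 151.3 to 23.8. For miR-301a-3p and miR-130b-3p it was 37 to 14 and 49.3 to 13.2 in KD3, and 43.2 to 14 and 49.7 to 9 in KD6. Ratios of distinct sequences were not tested.

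The closest pair by sequence, miR-130a-3p and miR-130b-3p, also differed in how far they fell, which brought their mean levels closer in Ψ-IP. Their ratio was 2.43, 3.07 and 3.31 in the WT input and 0.89, 0.19 and 0.76 in the WT Ψ-IP, with no overlap. It fell by 1.44, or 2.71-fold, over the 3 states (exact permutation p = 0.015, adjusted p = 0.026). The difference was −2.32 in WT, −1.23 in KD3 and −0.76 in KD6, and in both knockdown states the fractions overlapped. The call was lost without replicate B of the KD6 input (−1.40), or without replicate B (−1.15) or C (−1.40) of the KD6 Ψ-IP (exact permutation, adjusted p = 0.056, 0.076 and 0.053). Without KD6 input A the differences of the 3 member ratios were −3.21 for miR-130a-3p to miR-301a-3p, −1.56 for miR-130b-3p to miR-301a-3p and −1.65 for miR-130a-3p to miR-130b-3p, each past the threshold (largest adjusted p = 0.014, exact permutation). Ratios that involve miR-301b-3p were not tested, since it had 3 or more reads in only 6 of 18 libraries.

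**Figure D4:**
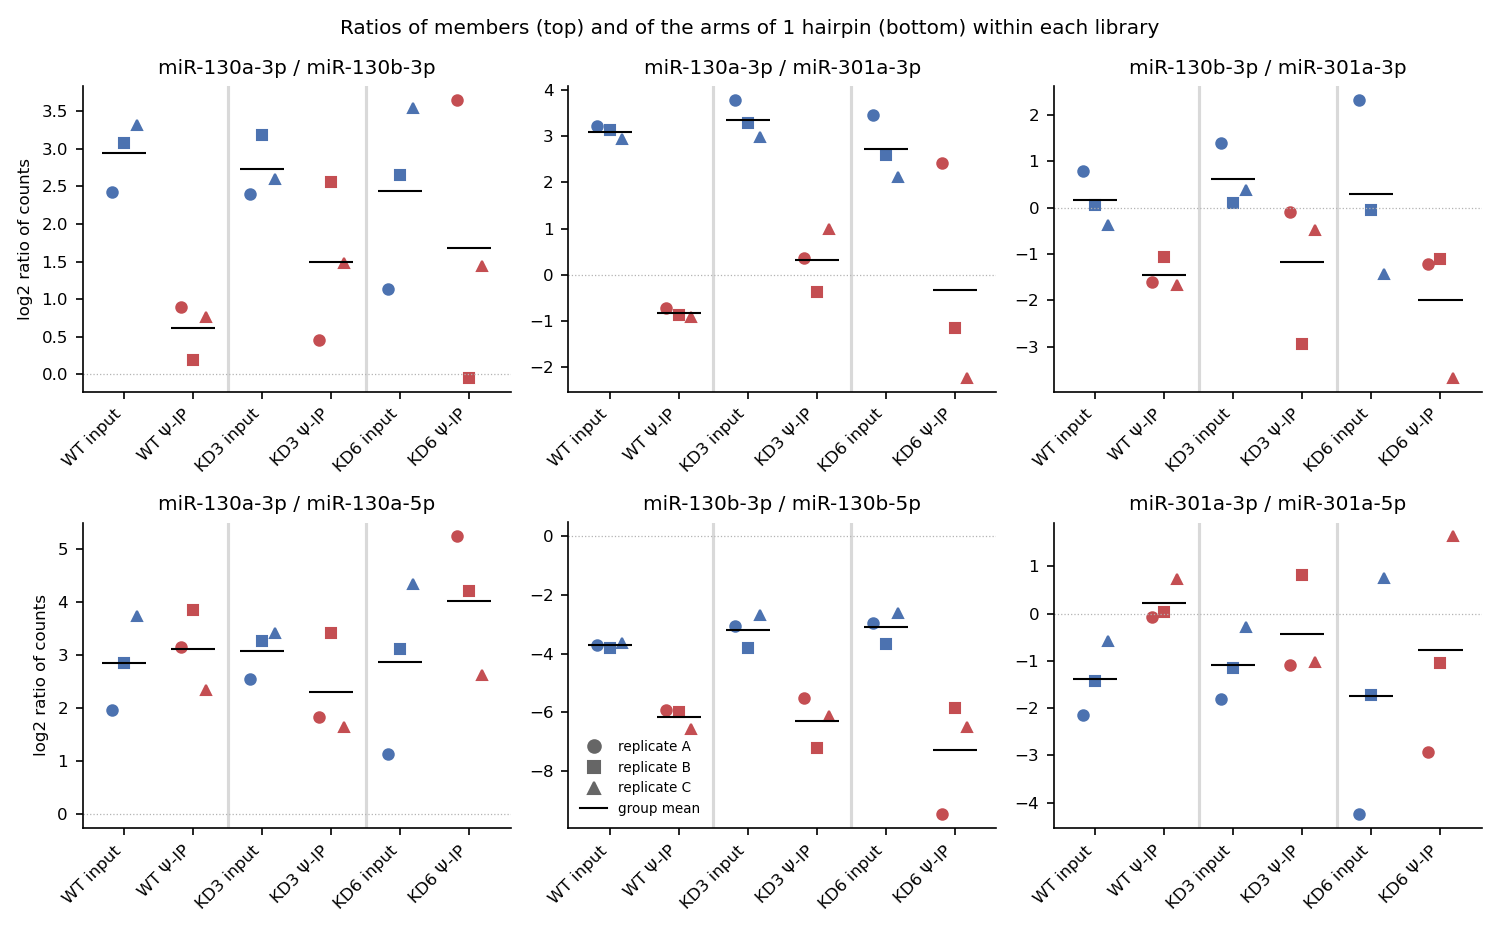
log2 ratio of counts (vertical axis, each panel with its own range) of 2 members (top row) or of the 3p to the 5p arm of 1 hairpin (bottom row) within each library, against the 6 groups, with input in blue, Ψ-IP in red, a symbol per replicate and a line at the group mean. Input and Ψ-IP are apart in all 3 states for the arms of miR-130b alone, and the arms of miR-130a overlap in each state.

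The 5p arms, which come from the same hairpins as the members, did not all follow their 3p arms. In the WT inputs the mean levels of the 5p and 3p arms were 132 and 10.1 CPM for mir-130b. They were 23.5 and 9.95 CPM for mir-301a, and 2.66 and 0.672 CPM for mir-301b. Only for mir-130a was the 3p arm higher, at 82.6 CPM against 10.8 CPM for the 5p arm. mmu-miR-130b-5p was the family sequence with the most reads in Ψ-IP, and the only one of the 7 arms tested that was called higher there. Its level was 116, 129 and 151 CPM in the WT input and 176, 217 and 230 CPM in the WT Ψ-IP. In KD3 it was 97.9, 118 and 100.4 CPM in input and 174, 236 and 188 CPM in Ψ-IP. In KD6 it was 71.7, 126 and 100.7 CPM in input and 341, 220 and 192 CPM in Ψ-IP. All Ψ-IP libraries lay above all inputs of their state. The log2 ratio was 0.65 ± 0.24 (SE) in WT, 0.92 ± 0.24 in KD3 and 1.28 ± 0.25 in KD6 (adjusted p = 0.020, 0.0021 and 0.00012, edgeR, Benjamini-Hochberg). It was above 0 in all 16 alternatives of each state, with 1.35 to 1.55 in WT, 1.42 to 1.57 in KD3 and 0.94 to 1.99 in KD6 when any 1 library of the state was left out, but the WT call was lost without a filter on low counts (0.49, adjusted p = 0.15, edgeR) and the KD6 call with total mapped reads as library size (0.46, adjusted p = 0.074). None of the 3 calls held as a change beyond 2-fold (adjusted p = 0.91, 0.51 and 0.080, edgeR). Relative to the median of all miRNAs it was 1.00, 1.18 and 1.63 in WT, KD3 and KD6, and over the alternatives 0.61 to 1.13, 0.92 to 1.22 and 0.93 to 1.82.

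The 3p and 5p arms of mir-130b, printed above in 1 hairpin, thus went opposite ways. The log2 ratio of the 3p to the 5p arm was −3.69, −3.80 and −3.63 in the WT input and −5.94, −5.98 and −6.57 in the WT Ψ-IP. In KD3 it was −3.07, −3.80 and −2.70 in input and −5.53, −7.21 and −6.13 in Ψ-IP. In KD6 it was −2.96, −3.66 and −2.62 in input and −9.49, −5.86 and −6.51 in Ψ-IP, the −9.49 from a library with 1 read of the 3p arm. Each Ψ-IP library lay below each input library of its state, and the 5p arm outnumbered the 3p arm in all 18 libraries. The ratio fell by 3.25, or 9.54-fold (exact permutation p = 0.00025, the smallest that 8000 arrangements can give, adjusted p = 0.0018). With any 1 library left out the difference lay between −3.49 and −2.89.

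Both arms of mir-130a were depleted. mmu-miR-130a-5p was at 12.4, 10.9 and 9.05 CPM in the WT input and 0.478, 0.183 and 0.733 CPM in the WT Ψ-IP, from 2, 1 and 5 reads. In KD3 it ranged from 7.93 to 10.5 CPM in input and from 0.710 to 2.30 CPM in Ψ-IP, and in KD6 from 7.12 to 9.42 CPM and from 0 to 0.846 CPM. Its log2 ratio was −4.43 ± 0.54 (SE), −2.51 ± 0.47 and −4.27 ± 0.62 in WT, KD3 and KD6 (adjusted p = 3.3e-07, 8.9e-05 and 3.4e-06, edgeR, Benjamini-Hochberg). The KD6 Ψ-IP held 5 reads, all in replicate C, so this size is poorly set and no fold is given without that library. Relative to the median it was −4.09, −2.25 and −3.92, and −4.77 in WT without replicate C of the WT Ψ-IP and −2.86 in KD3 without replicate C of the KD3 Ψ-IP. The ratio of the 3p to the 5p arm was 2.85 ± 0.89 in WT input and 3.12 ± 0.75 in WT Ψ-IP (SD, n = 3), and over the states it changed by 0.22 with overlap in each (exact permutation p = 0.686, adjusted p = 0.686).

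mmu-miR-301a-5p was lower in Ψ-IP. Its level was 23.0, 24.0 and 23.6 CPM in the WT input and 9.08, 6.94 and 4.54 CPM in the WT Ψ-IP. It ranged from 14.3 to 17.6 CPM in KD3 input and 6.74 to 8.37 CPM in KD3 Ψ-IP, and from 26.1 to 34.0 CPM and 8.24 to 16.7 CPM in KD6, with no overlap in any state. The log2 ratio was −1.80 ± 0.30 (SE) in WT, −1.07 ± 0.30 in KD3 and −1.48 ± 0.31 in KD6 (adjusted p = 1.9e-05, 0.0036 and 0.00024, edgeR, Benjamini-Hochberg). The KD3 call did not hold when any 1 of the 6 KD3 libraries was left out (−0.67 to −0.34), with a mean of at least 10 counts (−0.53, adjusted p = 0.14) or beyond 2-fold (adjusted p = 0.30, edgeR). The WT call did not hold without replicate C of the WT Ψ-IP (−0.71, adjusted p = 0.064, edgeR). The KD6 call did not hold without replicate B of the input (−0.89), without replicate A (−0.72) or C (−0.75) of the Ψ-IP, or with the KD6 libraries alone (−0.94, adjusted p = 0.084, edgeR). Relative to the median miR-301a-5p was at −1.45 in WT, −0.81 in KD3 and −1.13 in KD6, and in KD3 it stayed at −1.01 to −0.77 when any 1 KD3 library was left out. The 3p to 5p ratio of mir-301a was −1.38 ± 0.79 in WT input and 0.23 ± 0.44 in WT Ψ-IP (SD, n = 3), with no overlap, and overlapped in KD3 and KD6. Over the states it was 1.08 higher in Ψ-IP, which did not pass (exact permutation p = 0.135, adjusted p = 0.157), and 1.49 higher without replicate C of the KD6 input (adjusted p = 0.049).

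mmu-miR-301b-5p, from the hairpin beside mir-130b, was low, at 2.45, 2.06 and 3.48 CPM in the WT input and 1.91, 4.57 and 0.586 CPM in the WT Ψ-IP. In KD3 its input held 8 to 26 reads and its Ψ-IP 8 to 15. The log2 ratio was −0.19 ± 0.72 (SE) in WT, 0.90 ± 0.76 in KD3 and 1.13 ± 0.94 in KD6, none past the threshold (adjusted p = 0.82, 0.30 and 0.29, edgeR, Benjamini-Hochberg), although without replicate A of the KD6 Ψ-IP it was 2.29 (adjusted p = 0.036). In all 3 states 1 of the 4 opposite arms was thus higher, 2 were lower and 1 was not called, with medians of −0.99 in WT, −0.08 in KD3 and −0.18 in KD6. Of all miRNAs 40.2%, 38.2% and 38.4% were lower and 25.5%, 27.6% and 30.5% higher, with medians of −0.35, −0.26 and −0.35, so that with 4 arms these counts do not stand apart from the rest.

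**Figure D5:**
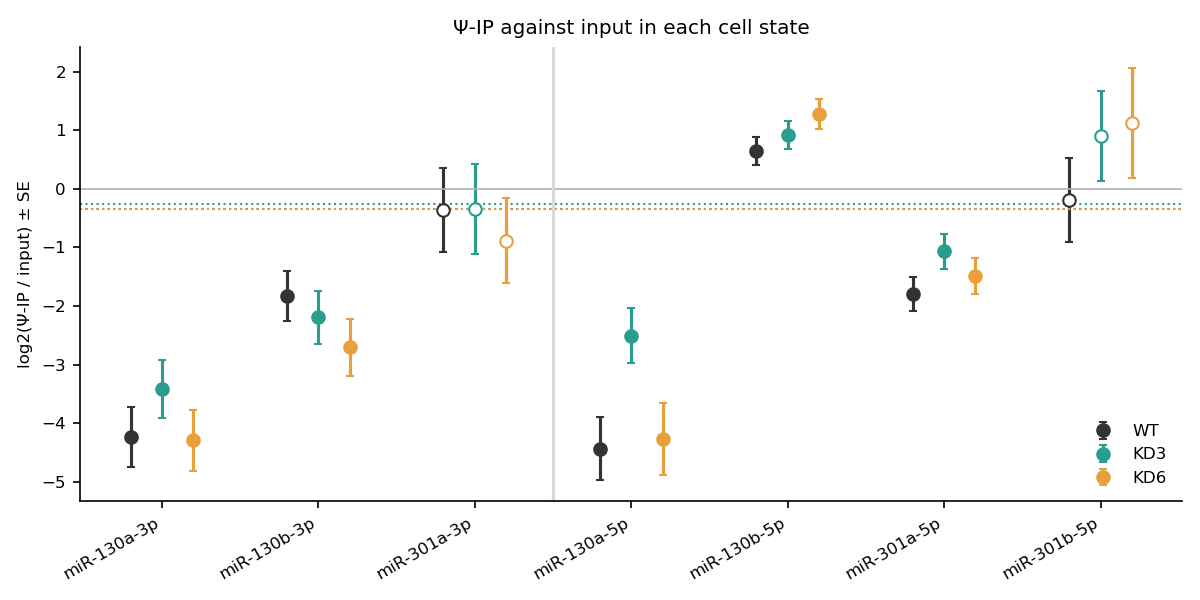
log2 ratio of Ψ-IP to input ± SE (vertical axis) of the 3 members tested (left) and the 4 opposite arms (right) in WT, KD3 and KD6, filled where the adjusted p was under 0.05, with dotted lines at the median of all 550 miRNAs. miR-130a-3p and miR-130a-5p lie lowest, and miR-130b-5p is the one arm with filled points above 0.

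The same seed as in the members occurs in 4 other mouse miRNAs of the reference table, which had almost no reads. mmu-miR-6341, mmu-miR-721 and mmu-miR-6389 had none in the 18 libraries, and mmu-miR-130c had 0.5 reads in 1 library. In these cells the seed was therefore read almost entirely from the 4 members.

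The miR-148/miR-152 family is related by sequence, since its seed holds the first 7 bases of the members shifted by 1 position. The shared letters are in capitals here, and these are also RefSeq sequences.
mmu-miR-130a-3p: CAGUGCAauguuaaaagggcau
mmu-miR-148a-3p: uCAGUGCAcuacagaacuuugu
mmu-miR-148b-3p: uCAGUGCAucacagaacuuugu
mmu-miR-152-3p: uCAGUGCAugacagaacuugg
This family, known for targeting DNA methyltransferases, was far more abundant than the miR-130/miR-301 family and was lower in Ψ-IP throughout. miR-148b-3p was at 1958, 1662 and 2094 CPM in the WT input and 138, 186 and 151 CPM in the WT Ψ-IP, and miR-152-3p at 1097, 956 and 1039 CPM and 123, 113 and 110 CPM. In WT the log2 ratio was −4.16 ± 0.36 (SE) for miR-148a-3p, −3.59 ± 0.26 for miR-148b-3p and −3.16 ± 0.29 for miR-152-3p, all past the threshold (largest adjusted p = 6.7e-09, edgeR, Benjamini-Hochberg). With 1 WT library left out these were −3.52 to −3.22, −2.98 to −2.69 and −2.41 to −2.28, and relative to the median of all miRNAs they were −3.81, −3.24 and −2.81. The 3 were also lower in KD3, from −4.43 to −2.95, and in KD6, from −3.76 to −2.82, which was −4.17 to −2.70 and −3.40 to −2.47 relative to the median. The log2 ratio of summed miR-130/miR-301 to summed miR-148/miR-152 reads was −5.63, −4.78 and −4.41 in the WT input and −3.91, −4.30 and −4.24 in the WT Ψ-IP. Over the states it was 0.69 higher in Ψ-IP, which did not pass after adjustment (exact permutation p = 0.0455, adjusted p = 0.0637). The adjusted value was under 0.05 without replicate C of the WT input (0.78), the KD3 input (0.76) or the KD6 input (0.92), or without replicate A of the KD3 Ψ-IP (0.77). Of the miR-130/miR-301 reads, miR-130a-3p held 79.5% in WT input and 27.9% in WT Ψ-IP, and miR-301a-3p 9.30% and 50.1%. miR-130a-3p alone was at −4.24 in WT, against −4.16 to −3.16 for the miR-148/miR-152 family. The part of this make-up in the summed ratio was not tested.

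By profile over the 6 group means of log2 CPM, each centred on its own average so that only its shape counts, the miRNAs most like miR-130a-3p among 184 with a mean of at least 50 CPM were miR-30b-5p, miR-152-5p and miR-152-3p (root mean square difference 0.25, 0.27 and 0.31). Those most like miR-130b-3p were miR-24-3p, miR-103-3p and miR-27b-3p (0.21, 0.22 and 0.24). Those most like miR-301a-3p were miR-374b-5p, miR-221-3p and miR-32-5p, at larger distances (0.35, 0.36 and 0.37). The 3 members thus had no near neighbour in common. All profiles share the same 18 libraries and their scaling.

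The knockdown comparisons ask whether loss of Pus1 altered the Ψ-IP enrichment of a miRNA. No member passed in any of them. For KD3 against WT the change in log2 ratio was 0.82 ± 0.68 (SE) for miR-130a-3p, −0.36 ± 0.62 for miR-130b-3p and 0.02 ± 1.07 for miR-301a-3p (adjusted p = 1.00 each, edgeR, Benjamini-Hochberg). Of all miRNAs, 0% passed, with 17 of 550 at an unadjusted p under 0.05 in edgeR and 0 calls by DESeq2. For KD6 against WT the changes were −0.06 ± 0.72, −0.87 ± 0.66 and −0.53 ± 1.02 (smallest adjusted p = 0.52, edgeR), with 0% of all miRNAs passing, 98 of 550 at an unadjusted p under 0.05 and 17 calls by DESeq2. For KD6 against KD3 they were −0.88 ± 0.70, −0.51 ± 0.68 and −0.54 ± 1.06 (smallest adjusted p = 0.50, edgeR), where 0.182% of miRNAs passed. The standard errors, 0.62 to 1.07, are about as large as these changes, so that a change of 2-fold would lie within 2 SE for each member. The comparisons share their WT or KD3 libraries.

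The opposite arms did not pass either. The largest change was in miR-130a-5p, 1.93 ± 0.76 (SE) for KD3 against WT (unadjusted p = 0.019, adjusted p = 1.00, edgeR, Benjamini-Hochberg) and −1.76 ± 0.84 for KD6 against KD3 (unadjusted p = 0.049, adjusted p = 0.30), and it stands on 8 reads in WT Ψ-IP, 21 in KD3 and 5 in KD6. For miR-130b-5p the changes were 0.27 ± 0.34 for KD3 and 0.62 ± 0.34 for KD6 against WT (adjusted p = 1.00 and 0.32, edgeR). Pus1 mRNA was not analysed here, and the knockdown was not checked.

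Among the inputs alone no member differed between cell states past the threshold. miR-130a-3p was at 82.6 ± 36.5 CPM in WT, 77.3 ± 16.2 in KD3 and 90.7 ± 89.3 in KD6, and miR-130b-3p at 10.1 ± 1.76, 11.8 ± 3.50 and 11.3 ± 4.53 CPM (SD, n = 3). These levels did not differ beyond their spread. miR-301a-3p was at 9.95 ± 5.41, 8.01 ± 3.68 and 18.04 ± 22.9 CPM, the last set by 1 library, replicate C at 43.9 CPM. Its log2 ratio was 1.57 ± 0.72 (SE) for KD6 against KD3 (adjusted p = 0.26, edgeR, Benjamini-Hochberg) and 0.19 without that library, and 1.23 ± 0.71 for KD6 against WT and −0.04 without it. Without a filter on low counts both passed, at 1.70 and 1.56 (adjusted p = 0.00055 and 0.0035, edgeR). The share of all miRNAs that passed was 0% for KD3 against WT (46 of 550 at an unadjusted p under 0.05, 8 calls by DESeq2), 4.18% for KD6 against WT and 4.36% for KD6 against KD3. Of the opposite arms, miR-301a-5p was 15.8 ± 1.62 CPM in KD3 and 31.3 ± 4.53 CPM in KD6 input with no overlap, a log2 ratio of 0.95 ± 0.29 (adjusted p = 0.065, edgeR, and 0.038 by DESeq2).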

How the data were processed

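The authors immunoprecipitated gel-purified small RNA of NIH/3T3 cells with a Ψ antibody, trimmed the 3′ adapter and ran SeqImp, version not given in the sources used here, with mm10, Ensembl 89 and miRBase 21. They deposited estimated counts per mature miRNA and locus, not normalized, in which reads that match several loci are divided, and tested them with DESeq2. Here 47.0% of non-zero values were not whole. Rows were summed per mature miRNA and rounded. Distinct sequences per row were used as deposited. The row of library totals was left out of library sizes and tests. The rounded counts of 18 libraries were fitted with edgeR 4.0.16 in R 4.3.3, by glmQLFit and glmQLFTest after filterByExpr and TMM scaling, over 6 group means, with Benjamini-Hochberg adjustment over the 550 miRNAs that passed, and a threshold of 0.05. CPM values use TMM library sizes. Sums of reads and floors cover counting error only, since amplified reads carry no molecular identifier.

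Ratios within a library used a pseudocount of 0.5, and each exact permutation test enumerated all arrangements of the labels within cell states. DESeq2 1.42.0 was an alternative, beside RLE factors, no factors, total mapped reads, the largest row per miRNA, no filter, a mean of at least 10 counts, a replicate block, only the libraries compared, a test beyond 2-fold and leaving out each library. The edgeR fit, but not the ratio tests, was also run on simulated counts, and no result here rests on that run.

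The members and lists were chosen with earlier results of these data known. Named were the 4 members, their opposite arms, other miRNAs with the same seed, the miR-148/152 family, and for each member tested the 3 miRNAs with the nearest profile. Whether letters pair libraries was checked over 189 miRNAs by the correlation of deviations from group means. All pairs of one letter exceeded 0.1 between the KD3 and WT inputs (0.20 to 0.60) and between the KD6 and KD3 inputs (0.23 to 0.33), which is taken from the values, since no label says what a letter shares. Sequences are from RefSeq tables, hosts from GENCODE M21, and coordinates are 1-based on GRCm38, the assembly also named mm10.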

Additional observations from a re-analysis of the deposited data

How the results depend on the processing

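Depth and scaling both limit these values. Ψ-IP libraries held 1 to 48.2 reads of miR-130a-3p or miR-130b-3p, and replicate A of the KD6 input held 7 family reads. The median of all miRNAs in WT moved between −0.37 and 0.59 over the settings. The calls of miR-130a-3p in all 3 states, and of miR-130b-3p in KD3 and KD6, kept their direction and side of the threshold in all 16 alternatives each, as did the ratios of miR-130a-3p and of miR-130b-3p to miR-301a-3p and the miR-130b arm ratio in all 20. The log2 ratio relative to the median was chosen after seeing the data. The cause of the changes below was not tested, apart from single libraries, which are named.

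The replicate block, with the letter as a term, gave 362, 362 and 371 calls for Ψ-IP against input in WT, KD3 and KD6, and 21 and 22 for the KD6 inputs against WT and KD3, and in edgeR it changed no call of a member in the 9 comparisons, nor of an opposite arm for Ψ-IP against input. For 7 of the 9 pairs of groups not every letter exceeded a correlation of 0.1, so pairing by letter was not established there. Between Ψ-IP and input the correlations ran from −0.15 to 0.02 in WT, −0.07 to 0.38 in KD3 and −0.22 to 0.53 in KD6. With same-letter differences, the miR-301a arm ratio (1.08) and the ratio to miR-148/miR-152 (0.69) passed (adjusted p = 0.022 and 0.0068, exact sign-flip permutation), and were higher in Ψ-IP in 8 and 9 of 9 pairs. With the block the change in enrichment was −0.11 for miR-301a-3p, KD3 against WT, and 0.038 for miR-130a-3p, KD6 against WT, both of reversed sign and neither past the threshold.

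Counts of calls moved as follows. For the change in enrichment they were 1 for KD3 against WT without a filter. For KD6 against WT they were 51 with total mapped reads, 6 with the largest row, 14 without a filter and 17 with DESeq2, and 0 to 20 with 1 library left out, highest without replicate C of the KD6 Ψ-IP. For KD6 against KD3 they were 12 without factors, 8 with total mapped reads, 20 without a filter and 3 with DESeq2, and 0 (without replicate C of the KD3 Ψ-IP) to 44 (without replicate C of the KD6 Ψ-IP). For inputs, KD3 against WT gave 1 without factors, 5 without a filter, 1 with a mean of at least 10 counts, 77 with only the libraries compared and 8 with DESeq2. KD6 against WT gave 0 beyond 2-fold, 13 without factors, 14 with total mapped reads, 15 with the mean filter, and 0 to 22 with 1 library left out (0 without replicate C of the KD6 input). KD6 against KD3 gave 0 beyond 2-fold, 12 without factors, 10 with total mapped reads, 14 with the mean filter, 10 with only the libraries compared, and 1 (without replicate A of the KD3 input) to 36. No member was among those past the threshold in these fits, except miR-301a-3p in the KD6 inputs without a filter.

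Signs turned only for values that were not called. For Ψ-IP against input with a mean of at least 10 counts, miR-301a-3p was 0.34 in WT and 0.17 in KD3 and miR-301b-5p 0.52 in WT, where it was 0.11 with RLE factors and 0.12 with DESeq2. Without a filter miR-301a-3p in KD6 was −1.33 and called. The change in enrichment of miR-301a-3p, KD3 against WT, was −0.063 with RLE factors, −0.075 without factors, −0.31 with total mapped reads, −0.090 without a filter, −0.16 with the mean filter and −0.027 with DESeq2. The input ratio of miR-130a-3p, KD3 against WT, was 0.053 with RLE factors, 0.094 without a filter, 0.050 with only the libraries compared and 0.054 with DESeq2. A pseudocount of 1 gave −0.10 for the miR-130a arm ratio.

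With 1 library left out, Ψ-IP against input ranged from −1.23 to −0.85 for miR-130b-3p in WT. For miR-301a-3p it ranged from 0.13 to 0.93 in WT, −0.42 to 0.54 in KD3 and −1.94 to 1.26 in KD6, and for miR-301b-5p in WT from −0.43 to 1.17. The change in enrichment of miR-130a-3p ranged from −0.65 to 0.84 for KD6 against WT and −1.22 to 0.29 for KD6 against KD3. That of miR-301a-3p ranged from −0.85 to 0.11 for KD3 against WT, −2.31 to 0.83 for KD6 against WT and −2.12 to 1.11 for KD6 against KD3. In the inputs, KD3 against WT ranged from −0.26 to 0.38 for miR-130a-3p and −0.59 to 0.26 for miR-301a-3p. KD6 against WT ranged from −0.54 to 0.92 and −0.041 to 1.96 for the same members. KD6 against KD3 ranged from −0.55 to 0.86 for miR-130a-3p and −0.22 to 0.51 for miR-130b-3p. The ratio of miR-130a-3p to miR-130b-3p ranged from −1.77 to −1.15, the arm ratios of miR-130a from −0.072 to 0.46 and of miR-301a from 0.66 to 1.49, and the ratio to miR-148/miR-152 from 0.52 to 0.92. The sign-changing ends for KD6 came without replicate C of the KD6 input, apart from the miR-130a arm ratio, where it was replicate A.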
